A study of Mus musculus with 4 samples.

Results

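Motile cilia and axoneme genes were examined in smooth muscle cells (SMCs) sorted from mouse lung after loss of Tet3. The group was a list of 48 genes given by name: 4 transcriptional regulators of ciliated cells and 44 genes for proteins of the axoneme or its assembly. All 48 were found by symbol among the 21462 genes measured, and 47 passed a minimum mean of 10 over the libraries and were tested. The genes lay on 18 chromosomes, with at most 7 on any one of them.

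A motile cilium is built around an axoneme, a ring of doublet microtubules that surrounds a central pair. Outer and inner dynein arms on the doublets generate the beat, radial spokes and the central apparatus control it, and the nexin-dynein regulatory complex ties neighbouring doublets together. In lung these structures belong to the multiciliated epithelial cells of the airway, in which FOXJ1 and RFX factors drive the genes that encode them, while SMCs are not known to build motile cilia.

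The data comprise total RNA sequencing of 2 Tet3 mutant and 2 control libraries, all from C57BL/6 mice. Mutants carried homozygous floxed Tet3, a tamoxifen-inducible Cre recombinase driven by the α-SMA promoter (α-SMA ERT2Cre2) and the ROSA26 tdTomato reporter. The study's methods describe daily intraperitoneal injections of tamoxifen, begun in adult mice. Across the study, controls lacked the floxed allele and carried the Cre allele, the reporter or both. Since SMCs were sorted by tdTomato here, the controls of these libraries must have carried the reporter together with the Cre allele that turns it on. TET3 oxidizes 5-methylcytosine in DNA, and the study asked what its loss does to transcription in SMCs. Digested lung was depleted of CD45+ and Ter-119+ cells with beads, and live tdTomato+ cells were sorted. Beyond this selection of tdTomato+ cells, no step that removes epithelial cells was described for this sort. The labels give neither age, sex nor batch. The study describes the RNA sequencing replicates as independent animals, 2 per genotype.

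Values are normalized counts, scaled between libraries and rounded by the authors. The libraries summed to 6805272 to 7164573, for an estimated 6.32 to 7.56 M assigned reads each. Tet3 was at 1847 and 1926 in the controls and at 1534 and 1444 in the mutants, a log2 fold change of -0.34 (SE 0.10, limma unadjusted p = 0.0184, adjusted p = 0.681). Smooth muscle markers were present in every library, with Acta2 at 686 and 900 in the controls and 1032 and 929 in the mutants. Markers of other lung cells were present too: 7 endothelial genes summed to between 12910 and 14252 per library, 8 alveolar type 2 genes to between 10571 and 22359, and 10 smooth muscle genes to between 10762 and 12895. Control replicate 2 stood apart from the other libraries, with Xist at 2, where the other control had 6781 and the mutants had 6542 and 5214. It also had the highest summed level of pan-epithelial and alveolar genes of all 4 libraries, but the lowest of club and secretory and of goblet genes. Squared differences between replicates were 24.9 times those of counting error in the controls and 6.49 times in the mutants.

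Nearly all of these genes were higher in the mutants. Of the 47 tested, 46 had a log2 fold change above 0, against 49% of all 16659 genes tested, and the median was 0.69 against -0.01 over all genes. Both mutant libraries lay above both control libraries for 38 of the 47 (19.6% of all genes), and for 32 of them the fold change also exceeded 1.5 (6.22% of all genes). Both mutants lay below both controls for 0 of the 47, against 19.5% of all genes. In limma's test 22 of the 47 had an unadjusted p under 0.05, all of them higher in the mutants, against 3.83% of all genes in that direction, and 0 were lower, against 2.85%. No gene passed the adjusted threshold of 0.05, neither among these 47 nor among all 16659 (0%), and adjusted p-values of the tested cilia genes ran from 0.681 to 0.992 (limma, Benjamini-Hochberg). The differences below are therefore given as values.

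**Figure D1:**
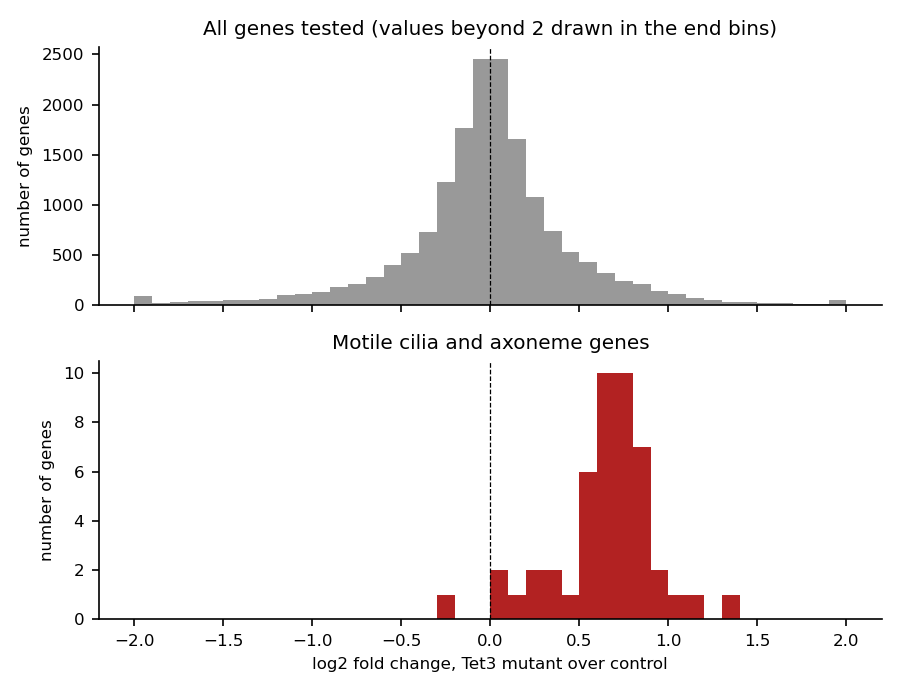
Histograms of the log2 fold change (x axis, Tet3 mutant over control, bins of 0.1) by number of genes (y axis) for the 16659 genes tested (top) and the 47 motile cilia and axoneme genes tested (bottom), with 0 as a dashed line. The upper histogram is centred near its median of -0.01, while 46 of the 47 genes in the lower one lie above 0, around a median of 0.69.

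Summed over the 48 genes, the normalized counts were 10156 and 11329 in the controls and 20053 and 13247 in the mutants. That is 0.145% and 0.158% of the control totals, and 0.291% and 0.195% of the mutant totals. The 2 control sums were close to each other and both mutant sums lay above them, but the mutants differed from each other by more than mutant replicate 2 differed from the controls. The summary values moved with mutant replicate 1: without it the median log2 fold change was 0.37 and 42 genes stayed above 0. Without mutant replicate 2 these were 0.94 and 46. Without control replicate 1 the median was 0.53. In bulk RNA, more cells of a type and more RNA per cell cannot be told apart.

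**Figure D2:**
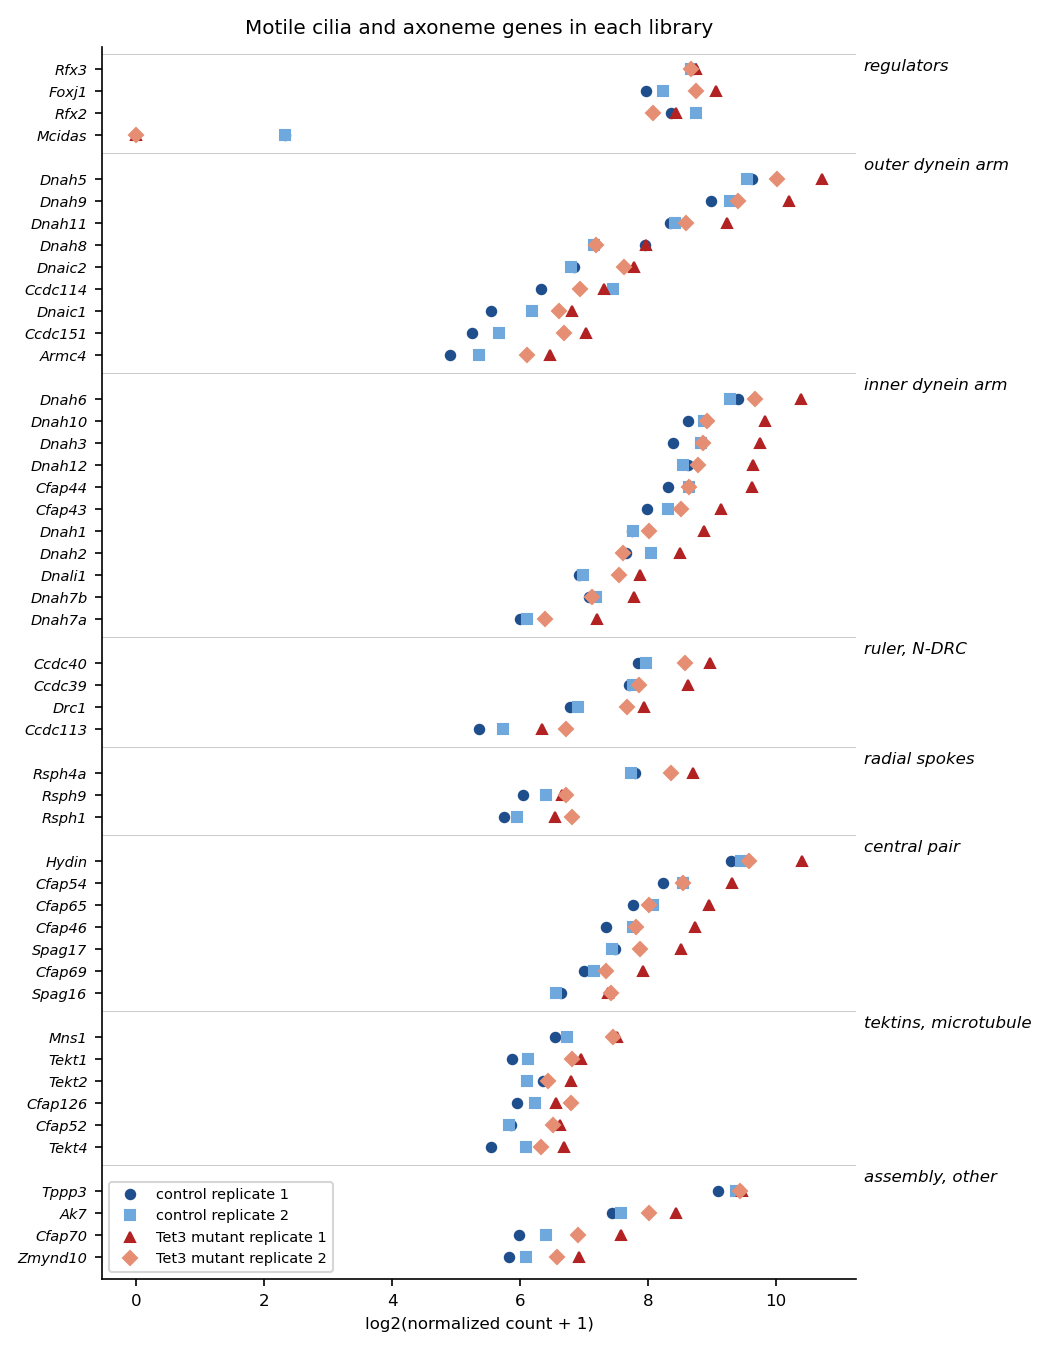
Normalized count of each of the 48 genes on a log2(value + 1) scale (x axis), with 1 symbol per library and genes (y axis) grouped by role and ordered by mean level. Blue symbols are the control libraries and red symbols the Tet3 mutant libraries. Red triangles (mutant replicate 1) lie to the right of both controls for most genes, and red diamonds (mutant replicate 2) lie closer to the controls for the dynein heavy chains. For Mcidas the controls coincide at 4 and the mutants at 0.

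The transcriptional regulators did not move together. Foxj1 (chr11:116330704-116335399, GRCm38, minus strand), the transcription factor that switches on the motile cilia genes, was at 249 and 301 in the controls and 535 and 431 in the mutants. Both mutants lay well above both controls, and the log2 fold change was 0.81 (SE 0.18, limma unadjusted p = 0.00597). Rfx2, an RFX factor that acts with FOXJ1 at ciliary promoters, was at 328 and 431 in the controls and 346 and 271 in the mutants. It was the only tested gene of the 47 below 0, at a log2 fold change of -0.30 (SE 0.21), and its groups overlapped. Rfx3, a further RFX factor of ciliated cells, was nearly level at 415 and 408 in the controls and 432 and 407 in the mutants, a log2 fold change of 0.03 (SE 0.12). Mcidas (chr13:112993845-113000394, plus strand), a coregulator that starts the multiciliated cell programme, was at 4 in each control and at 0 in each mutant. A library at 0 allows up to 3 counts, so no fold is given for Mcidas, and it was not tested. RFX factors are also used by cells without motile cilia.

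RFX proteins bind the X-box, an imperfect inverted repeat found in promoters of ciliary genes. RefSeq promoter windows (GRCm38.p6) were at hand for 40 of the 48 genes, and the 250 bases before the start were searched on both strands. A relaxed X-box (GTNNCC, any 3 bases, then GNAAC) stood in 6 of their 45 windows (13.3%), against 1.80% of 32851 windows over all genes. The 6 genes were Ccdc114, Ccdc151, Cfap44, Hydin, Spag16 and Tekt4. The shorter core GTTGCC, which can lie within an X-box, stood in 16 of the 45 windows (35.6%), against 10.4% of all windows. The forkhead core GTAAACA, a sequence that FOXJ1-type factors can bind, stood in 2 of the 45 (4.44%), those of Ak7 and Cfap43, against 3.17% of all windows. A match describes letters only, and binding was not measured here.

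Promoter windows of 4 genes are shown as examples of the X-box letters near genes of different axonemal structures, each as 100 bases on the gene's own strand with the match in capitals. The capitals of Spag16 and Ccdc151 fit the stated letters as printed. Those of Hydin and Cfap44 fit them only when read on the opposite strand. Spag16 and Hydin belong to the central apparatus, Ccdc151 to the outer arm docking machinery and Cfap44 to the inner arm tether. The match ended 89, 7, 20 and 13 bases before the RefSeq start in the order printed, at chr1:69826824-69826923 (plus strand), chr8:110266877-110266976 (plus), chr9:22002635-22002734 (minus) and chr16:44394696-44394795 (plus).
Spag16: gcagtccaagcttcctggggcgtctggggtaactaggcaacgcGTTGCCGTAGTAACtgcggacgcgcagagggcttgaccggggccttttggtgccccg
Hydin: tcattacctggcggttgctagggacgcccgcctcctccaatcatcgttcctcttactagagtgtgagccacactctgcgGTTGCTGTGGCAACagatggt
Ccdc151: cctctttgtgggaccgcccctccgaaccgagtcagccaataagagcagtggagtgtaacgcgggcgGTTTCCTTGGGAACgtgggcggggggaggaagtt
Cfap44: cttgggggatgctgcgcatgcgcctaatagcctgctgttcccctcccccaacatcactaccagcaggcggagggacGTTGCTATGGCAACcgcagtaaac

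Genes of the outer dynein arm and its docking, 9 in number, were all above 0, with a median log2 fold change of 0.78. Both mutants lay above both controls for 7 of them (19.6% of all genes). Dnah5 (chr15:28203752-28472052, plus strand), the outer arm heavy chain often mutated in primary ciliary dyskinesia, was at 793 and 746 in the controls and 1691 and 1033 in the mutants (log2 fold change 0.78, SE 0.24, limma unadjusted p = 0.0239). Dnah9, the heavy chain of distal ciliary arms, was at 508 and 626 in the controls and 1177 and 679 in the mutants (log2 fold change 0.66, SE 0.29). For both heavy chains mutant replicate 1 was far above the controls and mutant replicate 2 nearer to them.

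The intermediate chains and docking factors of the outer arm were more even between the mutants. Dnaic2, an intermediate chain, was at 114 and 110 in the controls and 219 and 196 in the mutants, a log2 fold change of 0.88 (SE 0.18, limma unadjusted p = 0.00432). Its partner Dnaic1 was at 46 and 72 in the controls and 111 and 97 in the mutants (log2 fold change 0.84, SE 0.31, limma unadjusted p = 0.0421). Neither chain overlapped between the groups. Ccdc151, which helps to place the docking complex, had the largest log2 fold change of the 47, 1.40 (SE 0.29, limma unadjusted p = 0.00491), from 37 and 50 in the controls to 130 and 102 in the mutants. Armc4, a docking factor as well, was at 29 and 40 in the controls and 88 and 68 in the mutants (log2 fold change 1.16, SE 0.33, limma unadjusted p = 0.0158). Dnah8, a heavy chain best known from sperm, and the docking gene Ccdc114 overlapped between the groups, with log2 fold changes of 0.02 and 0.25, and Dnah11 stood between these and the rest at 0.53. Dnah8 took a sign below 0 without control replicate 2 or without mutant replicate 1, and Ccdc114 did so without control replicate 1.

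The inner dynein arm and its tether were represented by 11 genes, all above 0, with a median log2 fold change of 0.69. Both mutants lay above both controls for 8 of them (19.6% of all genes). Dnah6, an inner arm heavy chain, was at 681 and 625 in the controls and 1343 and 821 in the mutants (log2 fold change 0.69, SE 0.25, limma unadjusted p = 0.0385). Dnah10, a heavy chain of the inner arm with a pair of heads, was at 397 and 471 in the controls and 916 and 484 in the mutants, a log2 fold change of 0.62 (SE 0.32). Mutant replicate 2 was only just above control replicate 2 for Dnah10. The light intermediate chain gene Dnali1 was at 121 and 126 in the controls and 233 and 186 in the mutants (log2 fold change 0.75, SE 0.20, limma unadjusted p = 0.0124). Cfap43, which with CFAP44 tethers an inner arm to the doublet, was at 253 and 316 in the controls and 568 and 366 in the mutants (log2 fold change 0.69, SE 0.25, limma unadjusted p = 0.0418). For these genes every mutant value exceeded every control value.

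The other 7 inner arm genes ran from 0.20 (Dnah2) to 0.74 (Dnah7a) in log2 fold change. Dnah2, Dnah7b and Cfap44 overlapped between the groups, and without mutant replicate 1 the log2 fold change was -0.25 for Dnah2 and -0.0040 for Dnah7b. Dnah7a and Dnah7b are near-identical copies on chromosome 1. Reads that fit several places had been left out by the authors, so the values of both, and of the further copy Dnah7c, are uncertain.

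Ruler and nexin-dynein regulatory complex genes had the highest median log2 fold change of all roles, 0.91. Both mutants lay above both controls for all 4 (19.6% of all genes). Drc1 (chr5:30281388-30366695, plus strand), a core subunit of the regulatory complex, was at 109 and 119 in the controls and 245 and 203 in the mutants, a log2 fold change of 0.96 (SE 0.19) with the smallest limma unadjusted p of the 47, 0.00398. Ccdc40, which with CCDC39 forms the molecular ruler that spaces the axonemal repeats, was at 230 and 251 in the controls and 501 and 384 in the mutants (log2 fold change 0.87, SE 0.18, limma unadjusted p = 0.00456). Its partner Ccdc39 was at 207 and 217 in the controls and 396 and 231 in the mutants, a log2 fold change of 0.51 (SE 0.28), with mutant replicate 2 close to the controls. Ccdc113, which encodes a protein beside the regulatory complex, was at 40 and 52 in the controls and 80 and 104 in the mutants (log2 fold change 0.98, SE 0.30, limma unadjusted p = 0.0209). Here mutant replicate 2 was the highest library.

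The 3 radial spoke genes, all of which encode proteins of the spoke head, lay at a median of 0.77 (log2 fold change). Both mutants lay above both controls for all 3 (19.6% of all genes). Rsph4a was at 223 and 212 in the controls and 419 and 328 in the mutants (log2 fold change 0.77, SE 0.17, limma unadjusted p = 0.00683). Rsph1 was at 53 and 61 in the controls and 93 and 111 in the mutants, a log2 fold change of 0.83 (SE 0.25, limma unadjusted p = 0.0218). Rsph9 was at 65 and 84 in the controls and 100 and 104 in the mutants (log2 fold change 0.46, SE 0.25). The mutants were close to each other for Rsph1 and Rsph9, in contrast to the heavy chains.

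All 7 central pair genes were above 0, with a median log2 fold change of 0.62. Both mutants lay above both controls for 5 of them (19.6% of all genes). Hydin (chr8:110266977-110610253, plus strand), a very large protein of a central pair projection, was at 629 and 704 in the controls and 1359 and 766 in the mutants, a log2 fold change of 0.62 (SE 0.28). Cfap54, also a projection protein, was at 300 and 374 in the controls and 639 and 373 in the mutants (log2 fold change 0.54, SE 0.29), so that mutant replicate 2 lay among the controls. Spag16 was at 99 and 94 in the controls and 165 and 170 in the mutants, nearly equal within each group, for a log2 fold change of 0.79 (SE 0.19, limma unadjusted p = 0.00831). Its binding partner Spag17 was at 178 and 173 in the controls and 366 and 234 in the mutants (log2 fold change 0.73, SE 0.25, limma unadjusted p = 0.0313). The remaining 3 genes, Cfap46, Cfap65 and Cfap69, had log2 fold changes between 0.56 and 0.72.

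Tektins and other proteins bound to the doublet microtubules were coded by 6 genes, with a median log2 fold change of 0.71. Both mutants lay above both controls for all 6 (19.6% of all genes). Mns1, a protein inside the doublet lumen, was at 93 and 106 in the controls and 183 and 174 in the mutants (log2 fold change 0.84, SE 0.19, limma unadjusted p = 0.00717). Over 53.0% of its exon length Mns1 overlaps exons of Tex9 on the opposite strand, and the use of strand in counting was not stated, so its value is uncertain. Tekt1, a filament protein of the doublet, was at 58 and 69 in the controls and 123 and 112 in the mutants, a log2 fold change of 0.88 (SE 0.24, limma unadjusted p = 0.0135). Cfap52, a further protein of the doublet lumen, was at 57 and 56 in the controls and 98 and 91 in the mutants (log2 fold change 0.73, SE 0.24, limma unadjusted p = 0.0273). Of the other 3, Tekt2 had a log2 fold change of 0.39, Cfap126 of 0.59 and Tekt4 of 0.68.

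The last 4 genes serve assembly or have other roles, with a median log2 fold change of 0.75. Both mutants lay above both controls for each of the 4 (19.6% of all genes). Zmynd10, a factor that preassembles dynein arms in the cytoplasm, was at 56 and 67 in the controls and 120 and 95 in the mutants (log2 fold change 0.79, SE 0.26, limma unadjusted p = 0.0288). Cfap70, a protein linked to the outer arm, was at 62 and 84 in the controls and 191 and 119 in the mutants, a log2 fold change of 1.05 (SE 0.32, limma unadjusted p = 0.0222). Ak7, an adenylate kinase of the cilium, was at 173 and 190 in the controls and 346 and 258 in the mutants (log2 fold change 0.72, SE 0.20, limma unadjusted p = 0.0154). Tppp3, a tubulin-binding protein that is not restricted to cilia, differed least of the 4, at 546 and 668 in the controls and 709 and 696 in the mutants (log2 fold change 0.22, SE 0.14).

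Levels of different genes were set side by side per kilobase of merged exons (GENCODE M21). Tppp3 was the highest by this measure, at a mean of 328 normalized counts per kb in the controls and 380 in the mutants, followed by Foxj1 at 105 and 184. Rsph4a and Dnali1 came next, at 59.6 and 57.9 in the controls. Dnah5 stood at 49.2 per kb in the controls and 87.1 in the mutants, and Hydin at 37.0 and 58.9. The lowest tested genes were Dnah7a at 5.13 and 8.97, Dnah7b at 6.98 and 8.98 and Dnah8 at 7.25 and 7.36, and Mcidas was at 1.68 in the controls. The places of Dnah7a and Dnah7b are uncertain, since reads that fit both copies had been left out. Subunits that sit in a complex together were at unlike levels per kb, as shown by Dnaic1 at 21.2 and Dnah5 at 49.2 in the controls.

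The mutant libraries differed from each other in an ordered way, and the order followed gene length. For the 26 tested genes with over 6 kb of merged exons, which include all dynein heavy chains and Hydin, the median log2 fold change against the controls was 1.03 in mutant replicate 1 and 0.21 in mutant replicate 2. For the 6 genes of 3 to 6 kb it was 0.95 and 0.76, and for the 15 genes under 3 kb 0.87 and 0.68. Mutant replicate 1 was thus at a similar distance from the controls in all length classes, while mutant replicate 2 was nearer to the controls for the long genes than for the others. Mutant replicate 2 was below mutant replicate 1 for 25 of the 26 long genes, 6 of the 6 of middle length and 11 of the 15 short ones.

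Across the 47 genes the log2 ratio of mutant replicate 2 to mutant replicate 1 had a Spearman correlation of -0.79 with log2 exon length (Pearson -0.79). The same correlation was -0.33 across 65 further motile cilia genes and -0.13 across 16645 genes with an exon length. For the ratio of the controls it was -0.22 across the 47 genes. For the further genes, median log2 fold changes of mutant replicate 1 against the controls were 0.95 (under 3 kb), 0.98 (3 to 6 kb) and 0.74 (over 6 kb). Those of mutant replicate 2 were 0.68, 0.55 and 0.21. Among the further genes both mutants were thus nearer to the controls for the long genes. These are descriptions across genes, which share the same libraries and are not independent. Over all genes of more than 6 kb the median log2 ratio of the mutants was -0.04, against -0.78 for the 26 long cilia genes. These sets were not matched in length, with median exon lengths of 8350.5 and 12388 bases. In the longest bin of all genes, with a median length of 14715 bases, the median log2 ratio was -0.12. Long genes in general thus differed in the same direction, by less. RNA integrity of single libraries and coverage along transcripts are not in the table, and their part in this pattern was not tested.

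**Figure D3:**
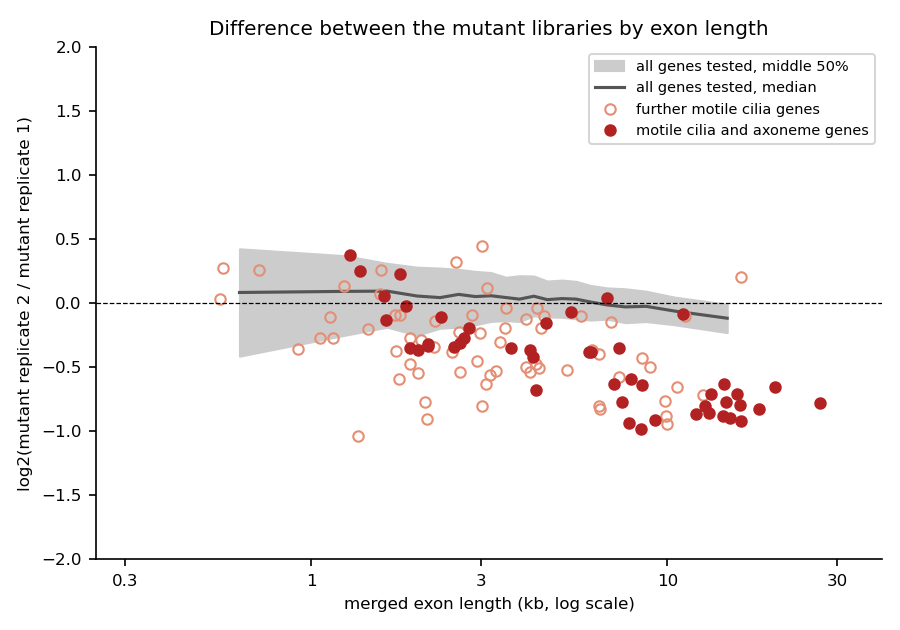
The log2 ratio of mutant replicate 2 to mutant replicate 1 (y axis) against merged exon length in kb on a log scale (x axis) for the 47 motile cilia and axoneme genes (filled red), 65 further motile cilia genes (open circles) and all genes tested, drawn as the median (line) and the range between quartiles (grey) in length bins of equal gene number. The median of the filled points is -0.19 under 3 kb, -0.36 at 3 to 6 kb and -0.78 above 6 kb. The median line falls less, from 0.08 in the shortest bin to -0.12 in the longest.

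Further genes of motile cilia, listed apart from the 48 but also chosen with earlier results known, gave like values in the same libraries. The table held 67 such genes. A total of 65 were tested, 63 had a log2 fold change above 0, and the median was 0.77. This median was 0.52 without mutant replicate 1 and 0.94 without mutant replicate 2. Both mutants lay above both controls for 53 of the 65 (19.6% of all genes), and 30 had an unadjusted p under 0.05, all higher (3.83% of all genes). By mean level the first 5 were Dnaaf5, Dnal1, Wdr78, Gas8 and Wdr66, with log2 fold changes of 0.07, 0.19, 0.39, 0.26 and 0.53. The 30 with an unadjusted p under 0.05 comprised assembly factors (Dnaaf1, Ccdc103), regulatory complex genes (Ccdc65, Drc3, Drc7, Iqca), the inner arm genes Dnah7c and Wdr63, spoke or central pair genes (Rsph10b, Nme5, Spef2, Lrrc23), Cfap genes (Cfap45, Cfap53, Cfap57, Cfap58, Cfap77, Cfap100, Cfap157, Cfap161, Cfap206, Cfap299) and Efcab1, Pifo, Fam183b, Sntn, Kif27, Ccdc146, Ccdc153 and Tmem212. Their log2 fold changes ran from 0.51 (Cfap45) to 1.43 (Cfap299). Ccdc153 had the smallest limma unadjusted p of the list, 0.00262, at 133 and 140 in the controls and 302 and 247 in the mutants (log2 fold change 1.00, SE 0.18).

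Upstream regulators of multiciliated cells were mixed, as were the regulators among the 48. Myb, which acts early in this programme, was at 166 and 170 in the controls and 374 and 263 in the mutants (log2 fold change 0.90, limma unadjusted p = 0.00849). Trp73, an upstream activator of Foxj1, was at 51 and 55 in the controls and 136 and 103 in the mutants (log2 fold change 1.15, limma unadjusted p = 0.00699). E2f4, which is expressed widely, was at 422 and 439 in the controls and 368 and 393 in the mutants (log2 fold change -0.18). Gmnc was at 7 and 6 in the controls and 2 and 5 in the mutants, so both mutants lay below both controls. Foxn4 stayed between 1 and 5 in the 4 libraries, and both genes were too low to be tested. Ccno was at 9 and 26 in the controls and 11 and 10 in the mutants (log2 fold change -0.52). E2f5 had a log2 fold change of -0.20 and Deup1 of 0.82. Both mutants were above both controls for 3 of the 6 tested genes of this list (19.6% of all genes). They were below both controls for 1, E2f4 (19.5% of all genes). Myb and Trp73 are not restricted to ciliated cells, and these regulators were named after their values were seen where they lie outside the 2 of highest mean level.

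Intraflagellar transport and BBSome genes, which serve primary and motile cilia alike, were higher by small amounts. The median log2 fold change over 29 tested genes was 0.15, the values ran from -0.24 to 0.38, 0 had an unadjusted p under 0.05, and 23 lay above 0, against 49% of all genes. Both mutants were above both controls for 15 of the 29, against 19.6% of all genes, and none of them was higher by more than 1.5-fold. Summed, these genes were at 9236 and 9794 in the controls and 10480 and 10108 in the mutants. Their differences were thus smaller than those of the axoneme genes in these libraries, and the difference between the lists was not tested.

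Multiciliated cells are epithelial, so markers of the other airway and alveolar cells were read beside these values. Over 17 pan-epithelial genes the median log2 fold change was -0.91, opposite in sign to the cilia genes, and 2 of the 17 were above 0. Their sum was 5803 and 12425 in the controls and 4113 and 5967 in the mutants, so that control replicate 2 stood alone, and without it the median was -0.21. Epcam, an adhesion protein of all epithelia, was at 326 and 607 in the controls and 265 and 449 in the mutants. Cdh1, the epithelial cadherin, was at 1431 and 2612 in the controls and 1157 and 1478 in the mutants. Control replicate 2 exceeded control replicate 1 by a median log2 ratio of 1.18 over the pan-epithelial genes but of 0.20 over the 47 cilia genes. The summed cilia genes were 175% and 91.2% of the pan-epithelial sum in the controls and 488% and 222% in the mutants.

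Summed secretory, goblet and basal cell genes overlapped between the groups. The median over 9 club and secretory genes was 0.18 (log2 fold change), with sums of 5873 and 4015 in the controls and 4605 and 5081 in the mutants, with overlapping groups. Scgb1a1, the club cell secretoglobin, was at 356 and 244 in the controls and 318 and 350 in the mutants. Muc5ac, the goblet cell mucin, was at 19 and 0 in the controls and 9 and 14 in the mutants, and the basal keratin Krt5 was at 7 and 13 in the controls and 2 and 15 in the mutants. The 6 goblet genes summed to between 27 and 205 per library and 4 basal genes to between 42 and 72. The 8 alveolar type 2 genes all had log2 fold changes below 0, with a median of -0.60, which was -0.32 without control replicate 2. Both mutants lay below both controls for 7 of the 8 (19.5% of all genes). The 8 alveolar type 1 genes had a median of -0.51, which was -0.13 without control replicate 2. The 10 smooth muscle genes had a median of 0.46, with Myh11 at 1330 and 2300 in the controls and 2473 and 2249 in the mutants, and 0.21 without control replicate 1. Depletion of CD45+ cells notwithstanding, 6 macrophage genes had a median of 0.50 and 6 T cell genes of 1.13, which were 0.07 and 0.17 without control replicate 2. Which cells carried the cilia transcripts was not measured, and the part of cell makeup in their difference was not tested.

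**Figure D4:**
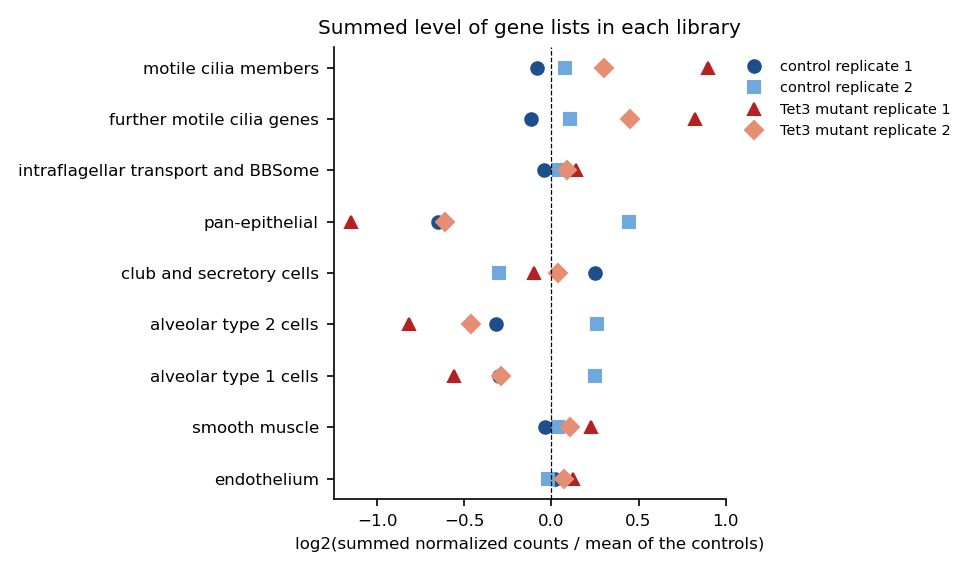
Summed normalized counts of gene lists (y axis) in each library as the log2 ratio to the mean of the controls (x axis, dashed line at 0), with blue symbols for controls and red symbols for Tet3 mutants. Both mutants lie to the right of both controls for the motile cilia lists, whereas for pan-epithelial and alveolar genes control replicate 2 lies alone to the right.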

How the data were processed

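RNA from sorted lung SMCs was measured in 4 libraries, grouped by genotype label. Libraries were made by the authors with a stranded total RNA kit after ribosomal depletion, and sequenced single-end. Per the submitters' processing notes and the study's methods, reads were trimmed (Trimmomatic 0.36), aligned to GRCm38 (mm10) with STAR 2.6.0c and counted over exons with featureCounts (Subread 1.6.0), without reads that fit several places or genes. Use of strand in counting was not stated. The deposited values are a score: counts per gene that the authors scaled between libraries, apparently with DESeq2, and rounded. Raw counts could not be recovered, so no count test was run.

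Genes with a mean of at least 10 were tested on log2(value + 1), a scale that understates changes of low genes, with limma 3.58.1 in R 4.3.3 (eBayes with a trend, Benjamini-Hochberg over all genes, threshold 0.05), a step tested on simulated data. Errors are moderated standard errors. An exact permutation test of 2 against 2 libraries cannot go below 0.333. The number of reads assigned to genes was estimated from the spacing of low values. As the limit that a value of 0 allows, 3 counts were used, which covers counting error only. Coordinates of 47 of 48 genes equalled GENCODE M21 (Dnah7b did not), which gave exon lengths for 99.9% of tested genes. Exons of 6 of the 48 genes overlap an opposite-strand gene over more than 10% of their length: Mns1, Tekt2, Ccdc39, Spag17, Dnah3 and Zmynd10.

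The cilia genes and the other lists were chosen with earlier results of these data known. Named with values were the 4 regulators, the 2 genes of highest mean in each other role, those with an unadjusted p under 0.05 and those below the minimum mean. From other lists, at most 2 of the highest means and Epcam, Scgb1a1, Muc5ac, Krt5, Acta2 and Myh11 were named, and 5 further cilia genes by mean plus any with an unadjusted p under 0.05. Alternatives were other pseudocounts (0.5, 8), minimum means (1, 50), TMM factors or equal totals, no trend, a replicate block and each library left out.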

Additional observations from a re-analysis of the deposited data

How the results depend on the processing

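The median log2 fold change of the cilia genes stayed between 0.68 and 0.74 under other pseudocounts, minimum means, scalings and variance models, 46 genes stayed above 0, and 0 passed the adjusted threshold under any of these settings or with a library left out. With each library left out in turn the median ran from 0.37 to 0.94, the number above 0 from 42 to 46, and Tet3 from -0.39 to -0.30. The sign of 5 genes rested on single libraries. Over the libraries left out, the log2 fold change ran from -0.016 (without mutant replicate 1) to 0.070 for Rfx3, from -0.25 (without mutant replicate 1) to 0.65 for Dnah2, from -0.0040 (without mutant replicate 1) to 0.65 for Dnah7b, from -0.32 (without control replicate 1) to 0.81 for Ccdc114, and from -0.37 (without control replicate 2 or mutant replicate 1) to 0.42 for Dnah8. Leaving out a library assumes that the lone sample varies like the other group. Without the variance trend 1 gene of all genes tested passed the threshold (adjusted p = 0.0307), Hal, which is no cilia gene and was named after its value was seen. The cause was not tested. With a minimum mean of 1, Mcidas was tested and had an unadjusted p under 0.05, lower. Under a replicate block no gene was called (0 of 16659), and the smallest adjusted p of the cilia genes was 0.357 (limma). Over all genes the block moved the number lower at an unadjusted p under 0.05 from 474 to 937. Same-numbered libraries deviated together weakly (Pearson 0.13, Spearman 0.12 over 16659 genes, 2 pairs), which does not settle whether the numbers mark a pairing. The labels give no shared litter, batch or day. Count-based tests were not run, since the table holds scaled, rounded values. With 2 libraries a group and an estimated 6.32 to 7.56 M assigned reads each, genes such as Mcidas were too low to compare.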
